A study of Mus musculus with 20 samples.

Results

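The genes of homologous recombination and of the Fanconi pathway described here are Brca1, Brca2, Palb2, Fanca, Fancd2, Fanci, Blm, Exo1 and Rad54l. They were chosen by name: every non-control array probe annotated with one of these 9 symbols was taken, from 31093 gene names on the array, which gave 11 of the 39429 non-control probes, with 2 probes each for Fanca and Palb2. The values come from whole blood of male mice on a C57BL/6 background, aged 8 to 10 weeks, hybridised to 20 single-colour Agilent arrays. The Il10-/- mice (B6.129P2-Il10tm1Cgn/J) carry a constitutive knockout of the anti-inflammatory cytokine Il10, in all cells, and serve as a model of inflammatory bowel disease. They and their WT littermates received 0 Gy (mock irradiation) or 7 Gy, and blood was taken 24 h later by cardiac puncture. Each of the 4 groups (WT 0 Gy, WT 7 Gy, Il10-/- 0 Gy and Il10-/- 7 Gy) had 5 arrays, and all RNA was depleted of globin transcripts.

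As background, homologous recombination copies the sequence of a sister chromatid into a DNA break and works mainly in cells that are replicating. Exo1 is a nuclease that trims the broken end and Blm is a helicase that helps to resect ends and to untangle joined strands. Brca1 is a ubiquitin ligase that promotes this trimming, Palb2 bridges it to Brca2, Brca2 acts on the trimmed single strand, and the motor protein Rad54l remodels DNA in the steps that follow. In the Fanconi pathway, which repairs crosslinks between the strands, Fanca belongs to the core complex that attaches ubiquitin to the pair Fancd2 and Fanci. Most circulating blood cells do not divide, and transcripts of these genes are known chiefly from cycling cells.

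The question asked of each gene was whether its transcript level in blood differed with dose, with genotype, or with dose differently in each genotype. A level is the log2 of the probe's processed intensity minus the median log2 of all non-control probes on that array, so 0 is the median probe of the array and a difference of 1 is a doubling. A feature was called at a limma p below 0.001 that also kept the false discovery rate of Benjamini and Hochberg under 10%, and 18587 features that passed the filters on background and on variation were tested. In bulk blood, fewer cells of a type and less RNA per cell cannot be told apart. Nothing in the sample records says how the 5 arrays of a group were spread over litters, so p-values measure the spread between these arrays. Replicates 1 and 2 were the most alike pair in every group, with a robust SD of their differences over features of 0.23 to 0.34, against 0.41 or more for any other pair.

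Between 29.9% and 57.8% of spots were well above background on an array. Replicate 5 of WT 0 Gy (29.9%) and replicate 3 of Il10-/- 7 Gy (34.6%) were the weakest arrays, and results that rest on them are given with and without them. The p53 targets Cdkn1a, Phlda3 and Ccng1 were higher after 7 Gy in both genotypes, by 5.42, 4.06 and 2.51 on the log2 scale in WT and by 4.45, 3.68 and 2.28 in Il10-/-, where 4.48% and 3.29% of all features were called higher. The array's Il10 probe read higher in the mice labelled Il10-/- (2.75 ± 0.31 at 0 Gy and 2.71 ± 0.62 at 7 Gy, SD, n = 5 each) than in those labelled WT (−1.54 ± 0.45 and −1.85 ± 0.61), and whether it lies in the altered part of the gene was not checked. Of 7 tested mature neutrophil markers 4 were called higher in unirradiated mice labelled Il10-/- than in WT, with a median difference of 1.90. Of all features 0.845% were called higher there. Directions between genotypes are given as the labels have them.

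The probes are oligonucleotides of 60 bases, and those of 3 genes are shown because they mark what was and was not read. The Brca1 probe, without a genome position in the array files, and the Fancd2 probe (chr6:113541170-113541229 of mm9, plus strand) were well above background on no array, and the brighter of the Palb2 probes (chr7:129256813-129256872, minus strand) was read on some.
Brca1: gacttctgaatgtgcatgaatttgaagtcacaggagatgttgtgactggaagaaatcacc
Fancd2: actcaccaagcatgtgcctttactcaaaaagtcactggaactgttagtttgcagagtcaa
Palb2: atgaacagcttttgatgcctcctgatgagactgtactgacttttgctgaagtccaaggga
The G and C share of these and of the Brca2 probe was 36.7% to 45%, and that of the tested Fanca probe was 28.3%.

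These transcripts were near the lower limit of the arrays. Tests were run on 7 probes of 6 genes (Fanca, Palb2 with both probes, Brca2, Rad54l, Exo1 and Blm), and 4 probes were removed by the background filter. Blm was well above background on 17 of 20 arrays and Fanca on 16, whereas Exo1 and the brighter Palb2 probe reached this on 10, Brca2 on 9, the other Palb2 probe on 2 and Rad54l on 1. Brca1, Fancd2, Fanci and the dimmer Fanca probe (chr8:125826045-125826104 of mm9, minus strand) were well above background on 0 of 20 arrays. The scanner software marked the spot, as an outlier or as indistinguishable from background, on 19 arrays for Brca1, 16 for Fancd2, 15 for Fanci and 12 for that Fanca probe. On the 13 arrays where Fancd2 and Fanci were both marked, their processed intensities were within 4.27% of each other, so such values follow the array's background and carry no order between genes or groups.

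**Figure D1:**
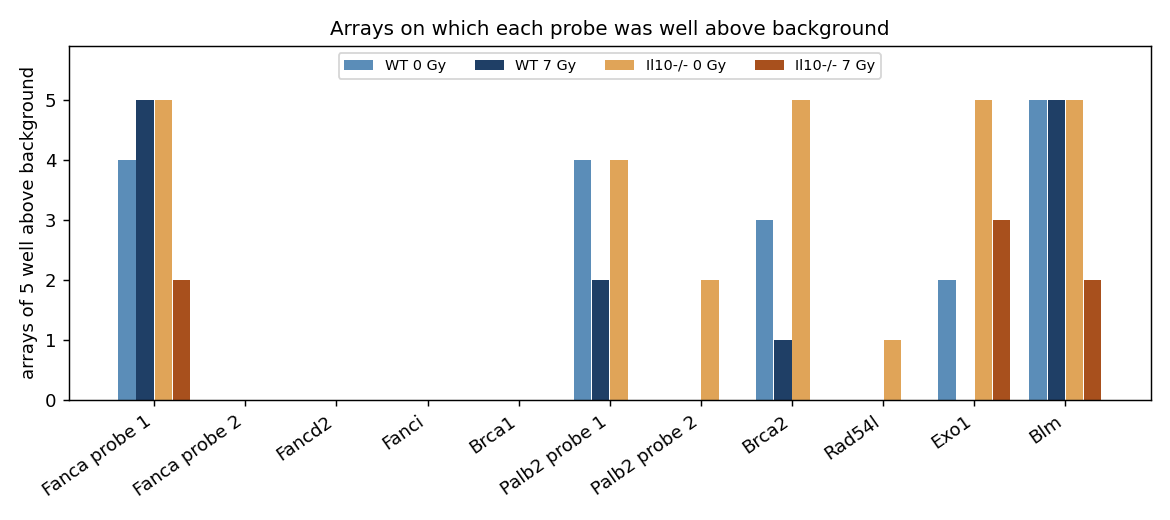
Number of arrays, of 5 in each group (y axis), on which each of the 11 probes (x axis) was well above background, with bars coloured by group. Blm was detected on all 5 arrays of 3 groups, Brca2 on all 5 arrays of Il10-/- 0 Gy and on none of Il10-/- 7 Gy, and Brca1, Fancd2, Fanci and the second Fanca probe on none.

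Fanca and Brca2 fell after 7 Gy in Il10-/- blood, and were the members called in that comparison (2 of 6 tested genes, both lower). Over all tested features 9.16% were called there and 5.87% were called lower, while 35.5% had an unadjusted p below 0.05, as did the same 2 members. The median difference of the 6 members was −0.79 on the log2 scale, against −0.10 over all features, and in WT it was −0.55 against −0.02. The Il10-/- median lies between Blm (−0.65) and the brighter Palb2 probe (−0.92), well above background on 0 of 5 irradiated arrays. The other Palb2 probe gave 0.04. The WT median lies between Exo1 (−0.75), also detected on 0 of 5 irradiated arrays, and the brighter Palb2 probe (−0.35). Both medians thus rest in part on signal near background. In each genotype 5 of 6 members had a difference below 0, as did 55.1% of all features in Il10-/- and 50.9% in WT. No other member was called with dose in either genotype, or between genotypes.

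Fanca, of the Fanconi core complex, was read by a probe at chr8:125792210-125792269 of mm9 on the minus strand. In unirradiated Il10-/- mice its levels were 1.92, 1.93, 2.07, 2.18 and 1.45, and after 7 Gy they were 0.50, 0.62, −0.48, 0.09 and 0.12. Every irradiated array lay below every unirradiated one, and the irradiated arrays were spread around the median probe of the array. The difference was −1.74 (SE 0.26, 95% interval −2.30 to −1.18), with an adjusted p of 0.000902 in limma. Fanca was well above background on 5 of 5 unirradiated and 2 of 5 irradiated arrays, and its spot was marked on 1 of the irradiated arrays, so the fitted size rests in part on signal near background. Groups that do not overlap in this direction were seen for 10.9% of all features. Without replicate 3 of the irradiated mice, the weakest of these arrays, the difference was −1.57 with an adjusted p of 0.00129 in limma.

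Brca2, the partner of Palb2, was read at chr5:151372225-151372284 of mm9 on the plus strand. Its levels in unirradiated Il10-/- mice were 0.46, 0.40, 1.16, 0.46 and 0.40, and after 7 Gy they were −1.80, −1.03, −0.40, −0.99 and −1.42. These groups did not overlap either, and replicate 3 was the highest array in each. The fitted difference was −1.70 (SE 0.29, 95% interval −2.32 to −1.08, adjusted p 0.00199 in limma). Brca2 was well above background on 5 of 5 unirradiated and 0 of 5 irradiated arrays, and its spot was marked on 3 of those 5, so the size of the fall has only a bound. Set against the lowest signal well above background on each irradiated array, the unirradiated level was at least 1.11-fold higher. Without replicate 3 of the unirradiated mice, which stood above its group, this bound was 1.0-fold, which leaves no minimum size. Such a bound compares the mean of the bright group with the mean, over the dim arrays, of the higher of that lowest signal and the probe's own. Without replicate 3 of the irradiated mice the difference was −1.88 with an adjusted p of 0.000878 in limma. With replicates 1 and 2 of each group averaged and counted as 1 array, Fanca was at −1.83 (adjusted p 0.00678) and Brca2 at −1.67 (adjusted p 0.0129 in limma), and both were called.

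In WT blood neither gene was called. Fanca stood at 2.42, 2.49, 2.40, 1.19 and 0.64 in unirradiated mice and at 0.69, 0.63, 0.75, 0.91 and 0.73 after 7 Gy. The irradiated arrays were close together, 4 of 5 unirradiated arrays were above all of them, and the weak replicate 5 lay among them. The difference of −1.09 (SE 0.43, 95% interval −1.99 to −0.19) had an adjusted p of 0.0979 in limma. Of the 6 members 0 were called in WT and 1, Fanca, had an unadjusted p below 0.05, where 6.8% of all features were called, 2.32% were called lower, 29.1% had p below 0.05 and 4.26% had groups that did not overlap in this direction. Without replicate 5 of WT 0 Gy the difference was −1.39 with an adjusted p of 0.0116 in limma, and Fanca was called. It was called also with arrays scaled to their 75th percentile (−1.31, adjusted p 0.00971 in limma), a scaling under which the median difference of all features was −0.25 rather than −0.02.

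For Brca2 the levels were 0.18, 0.35, −0.57, −0.40 and 1.5 in WT at 0 Gy and 1.21, −0.97, −0.94, −1.01 and −1.59 at 7 Gy. Replicate 1 of the irradiated and replicate 5 of the unirradiated mice stood above the rest of their groups, and the groups overlapped. Brca2 was well above background on 3 of 5 unirradiated and 1 of 5 irradiated arrays. Its fitted size rests in part on signal near background. The difference was −0.87 (SE 0.54, 95% interval −2.01 to 0.26, adjusted p 0.309 in limma). Without replicate 1 of WT 7 Gy it was −1.34 with an adjusted p of 0.0904, and without replicate 5 of WT 0 Gy −0.55 with an adjusted p of 0.441, both in limma.

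The dose effect was not shown to differ between the genotypes. The interaction, the Il10-/- difference minus the WT difference, was −0.65 (SE 0.49, 95% interval −1.65 to 0.35) for Fanca and −0.83 (SE 0.64, 95% interval −2.15 to 0.48) for Brca2, with adjusted p of 0.741 and 0.746 in limma over 20 arrays. Without replicate 5 of WT 0 Gy the value for Fanca was −0.35, and without replicate 1 of WT 7 Gy that for Brca2 was −0.36. Across omissions of any single array, the interaction spanned −0.82 to −0.35 for Fanca and −1.15 to −0.36 for Brca2. Of all 18587 features 0% were called in the interaction and 7% had p below 0.05, and 0 of 6 members did. The intervals include a dose effect in Il10-/- larger by more than 1 on the log2 scale as well as no difference. For Brca2, 0 of 5 irradiated Il10-/- and 1 of 5 irradiated WT arrays were well above background. Its interval therefore rests in part on signal near background.

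**Figure D2:**
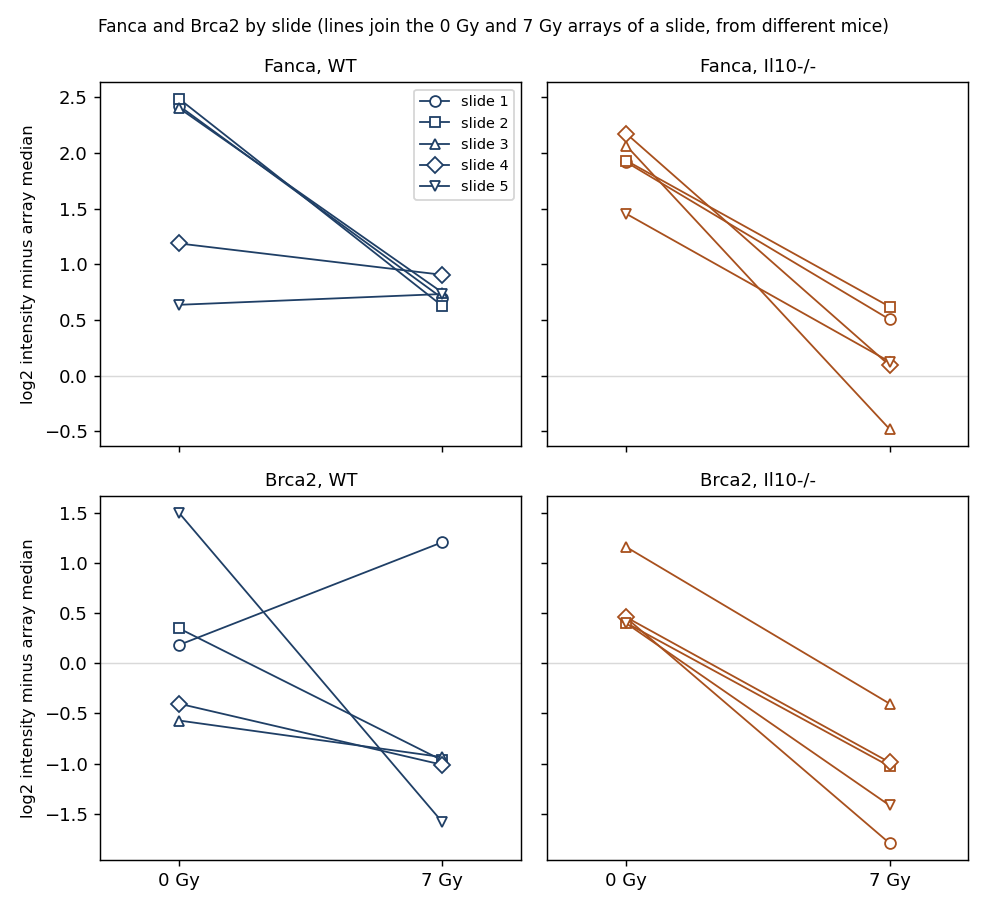
Levels of Fanca (top) and Brca2 (bottom) at 0 Gy and 7 Gy (x axis; y axis, log2 intensity minus the array median) in WT (left) and Il10-/- (right), with a line joining the 2 arrays of each of the 5 slides, which held different mice. In Il10-/- all 5 lines fall for both genes, with differences of −2.55 to −1.31 for Fanca and −2.25 to −1.43 for Brca2, and in WT 4 of 5 lines fall for each.

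The same values were also set side by side within slides. Each slide held 1 array of every group, and in Il10-/- the irradiated array was below the unirradiated one on 5 of 5 slides for Fanca and Brca2. Because these groups did not overlap, any pairing of their arrays would give this count, so it adds nothing to the group comparison. The within-slide differences ran from −2.55 to −1.31 for Fanca and from −2.25 to −1.43 for Brca2. In WT they ran from −1.86 to 0.10 for Fanca and from −3.09 to 1.03 for Brca2, with 4 of 5 slides below 0 for each.

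Exo1, the end-trimming nuclease at chr1:177838682-177838741 of mm9 on the plus strand, was not called in any comparison. Its levels were −0.05, 0.82, −0.03, −0.42 and −0.54 in WT at 0 Gy, −0.55, −0.84, −1.37, −0.51 and −0.69 in WT at 7 Gy, 0.26, 0.57, 0.32, −0.33 and 0.28 in Il10-/- at 0 Gy, and 0.10, −0.26, −0.18, 1.69 and 0.12 in Il10-/- at 7 Gy. The irradiated WT mice had the lowest mean (−0.79 ± 0.35, SD, n = 5), and none of their arrays was well above background. The irradiated Il10-/- arrays did not overlap with them, as was the case for 2.24% of all features in that direction. The fitted genotype difference after 7 Gy was 1.09 (SE 0.37, 95% interval 0.28 to 1.89) with an adjusted p of 0.391 in limma. With no irradiated WT array well above background, its fitted size rests in part on signal near background. In Il10-/- 3 of 5 arrays were well above background. Without replicate 4 of Il10-/- 7 Gy, whose level of 1.69 lay far above the others, the fitted difference was 0.74 with an adjusted p of 0.603 in limma. A bound formed as for Brca2 was then 1.18-fold. The mean of its bright group took in arrays not well above background, so it sets no minimum size. The fitted dose difference was −0.75 (95% interval −1.56 to 0.06, adjusted p 0.21 in limma) in WT, with all 5 slides below 0, and 0.07 (95% interval −0.71 to 0.85) in Il10-/-. The WT groups overlapped, the slides held different mice, and the share of all features with all 5 slides lower was not counted. In WT 2 of 5 unirradiated arrays were well above background. Such a bound was 1.19-fold, and 1.02-fold without replicate 2 of WT 0 Gy. For the same reason it sets no minimum size. The fitted interaction was 0.82 (95% interval −0.22 to 1.87, adjusted p 0.695 in limma). Without replicate 4 of Il10-/- 7 Gy it was 0.47, and across omissions of any single array it spanned 0.47 to 0.96. It rests on the same irradiated WT arrays.

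Palb2, the link between Brca1 and Brca2, gave different readings from its 2 probes. The brighter one was at 0.28, 0.58, 1.27, 2.31 and −1.44 in WT at 0 Gy, −0.51, −1.30, 1.33, 1.10 and 0.61 in WT at 7 Gy, 0.09, −0.90, −0.25, −0.55 and 0.67 in Il10-/- at 0 Gy, and −1.42, −2.74, −0.36, −1.0 and −0.03 in Il10-/- at 7 Gy. Unirradiated WT arrays alone ran from −1.44 to 2.31, and every pair of groups overlapped. The irradiated Il10-/- arrays had the lowest mean and 0 of 5 were well above background. The fitted difference between irradiated Il10-/- and irradiated WT was −1.36 (SE 0.60, 95% interval −2.67 to −0.05) with an adjusted p of 0.437 in limma. The irradiated WT mean of 0.25 lay below the lowest signals well above background on the Il10-/- arrays, which averaged 0.43, so the arrays give no size or bound for it. The other probe, at chr7:129251027-129251086 of mm9 on the minus strand, gave 0.52 (95% interval −0.90 to 1.94) for that comparison, the opposite sign. This probe was well above background on 0 of 5 irradiated arrays in each genotype, so that sign rests on signal near background. In the Il10-/- dose response the brighter probe gave −0.92 (95% interval −1.95 to 0.11) and the other 0.04 (95% interval −1.35 to 1.43). Over the 20 arrays the levels of these probes correlated by 0.20, as a description of probes that share arrays.

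Blm, the helicase at chr7:87600243-87600302 of mm9 on the minus strand, was the member detected on most arrays. In WT its levels were 2.28, 1.35, 2.26, 2.05 and 0.57 at 0 Gy and 1.46, 1.08, 2.2, 1.42 and 1.53 at 7 Gy. In Il10-/- they were 2.29, 1.85, 2.11, 1.21 and 1.73 at 0 Gy and 1.42, 1.76, 1.58, 0.45 and 0.74 at 7 Gy. The groups overlapped in both genotypes. The dose difference was −0.16 (SE 0.42, 95% interval −1.05 to 0.73) in WT and −0.65 (SE 0.31, 95% interval −1.32 to 0.02, adjusted p 0.153 in limma) in Il10-/-. In Il10-/- the irradiated array was lower on 5 of 5 slides, which held different mice. The share of all features with 5 of 5 lower was not counted. Without the weak replicate 5 of WT 0 Gy the WT difference was −0.45 with an adjusted p of 0.319 in limma. Without the weak replicate 3 of Il10-/- 7 Gy the Il10-/- difference was −0.75 with an adjusted p of 0.125 in limma, and it was not called.

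Rad54l, the motor protein at chr4:115769618-115769677 of mm9 on the minus strand, was well above background on 1 array, an unirradiated Il10-/- mouse. Its levels lay between −2.24 and −0.33 in WT at 0 Gy, −1.60 and 0.31 in WT at 7 Gy, −1.06 and 0.13 in Il10-/- at 0 Gy, and −0.87 and −0.14 in Il10-/- at 7 Gy. No group stood apart. The dose difference was 0.50 (95% interval −0.51 to 1.52) in WT and −0.05 (95% interval −0.67 to 0.57) in Il10-/-, on a probe that was mostly not well above background. Without the weak replicate 5 of WT 0 Gy, the lowest of its group, the WT difference was 0.21 with an adjusted p of 0.732 in limma.

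**Figure D3:**
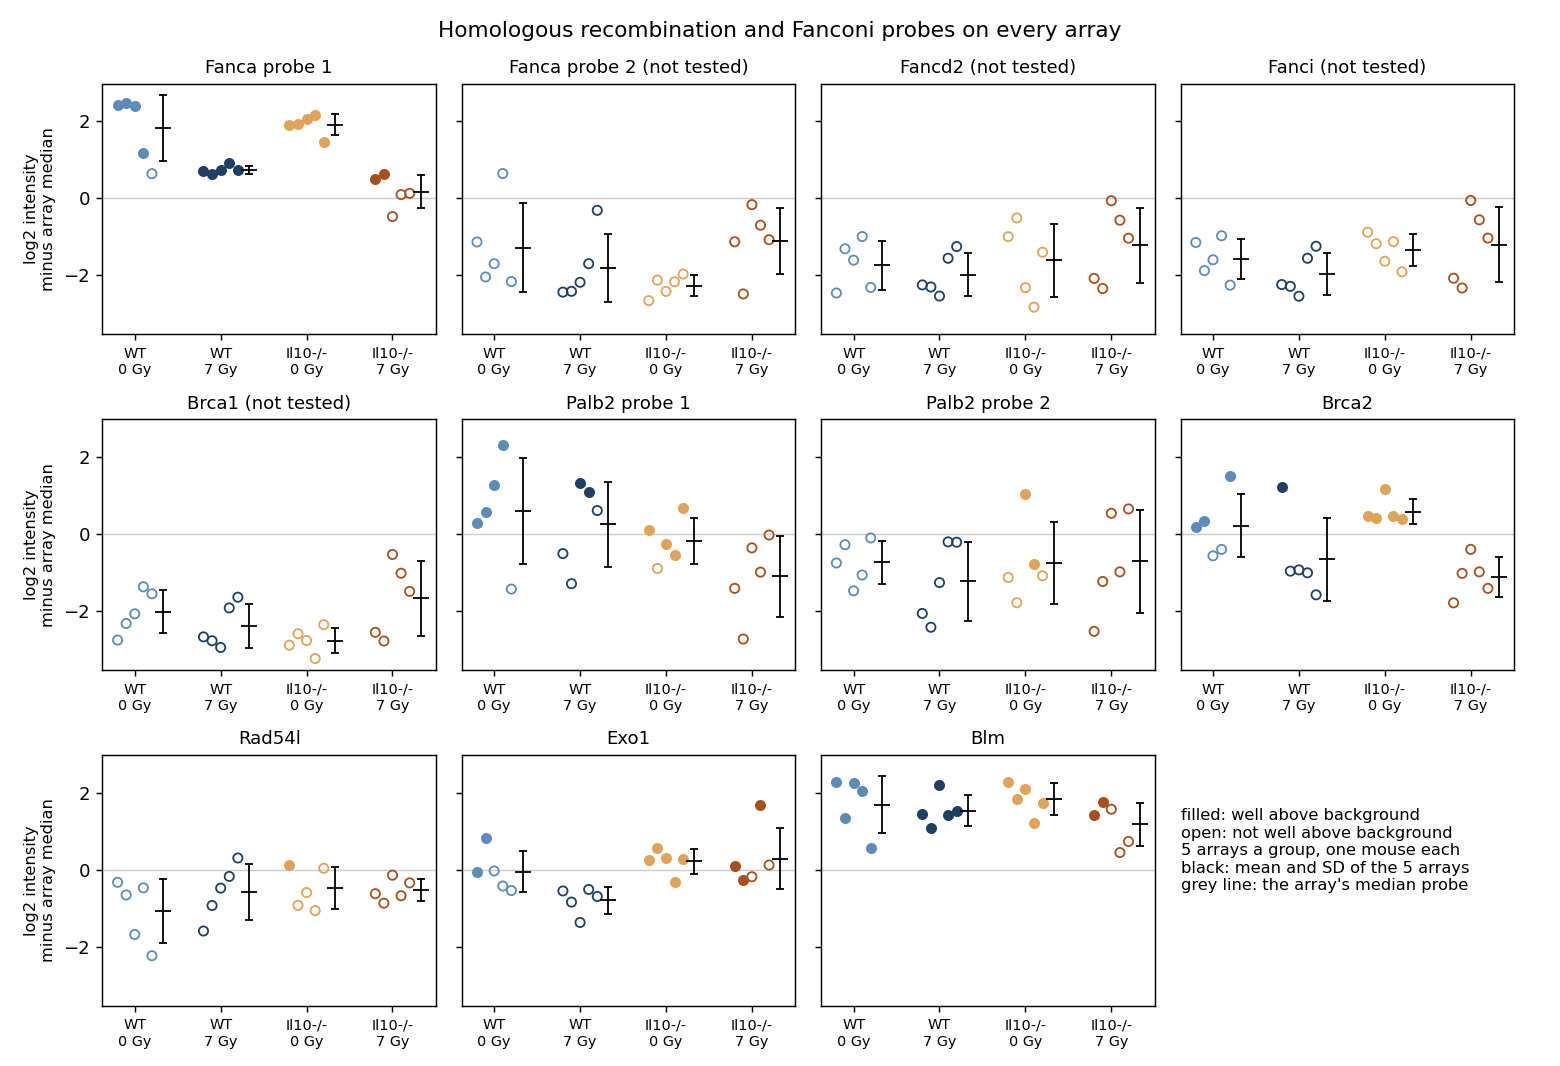
Level on every array (y axis, log2 intensity minus the array median) for each of the 11 probes, by group (x axis); filled points are well above background, open points are not, and black marks are the mean and SD of 5 arrays. Fanca probe 1 and Brca2 sit lower in Il10-/- at 7 Gy than at 0 Gy without overlap, and Blm stays above the median probe on every array.

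Between the unirradiated groups no difference was shown, and equal levels were not shown either. Fanca averaged 1.83 ± 0.86 in WT and 1.91 ± 0.28 in Il10-/-, Blm 1.70 ± 0.74 and 1.84 ± 0.41, and Brca2 0.21 ± 0.82 and 0.58 ± 0.33 (SD, n = 5 each). The 95% interval of the difference was −0.81 to 0.97 for Fanca and −0.73 to 1.01 for Blm. For Rad54l the difference was 0.59 (95% interval −0.34 to 1.52) and for Exo1 0.26 (95% interval −0.53 to 1.06). No member was called between unirradiated Il10-/- and WT, and 0 of 6 had p below 0.05, where 0.845% of all features were called and 16.1% had p below 0.05. The largest of these differences was for the brighter Palb2 probe, −0.79 (95% interval −1.94 to 0.37), and without replicate 5 of WT 0 Gy it was −1.30 with an adjusted p of 0.199 in limma. For Brca2 the difference was 0.36 (95% interval −0.52 to 1.25), and without that array it was 0.69 with an adjusted p of 0.281 in limma. Without it both Palb2 and Brca2 had an unadjusted p below 0.05. All features together stood 0.36 higher in unirradiated Il10-/- by the median, a shift that was 0.01 with 75th percentile scaling.

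After irradiation 3 of 6 members had p below 0.05 between genotypes and 0 were called, where 11.1% of all features had p below 0.05 and 0.00538% were called. Besides Exo1 and Palb2 this was Fanca, at 0.74 ± 0.10 in WT and 0.17 ± 0.43 in Il10-/- (SD, n = 5 each). Its difference was −0.57 (95% interval −1.10 to −0.04) with an adjusted p of 0.432 in limma. No array of irradiated Il10-/- reached the lowest irradiated WT array, a pattern of 0.716% of all features. Without replicate 3 of Il10-/- 7 Gy, however, the difference was −0.41 and its unadjusted p no longer below 0.05 (adjusted p 0.419 in limma).

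**Figure D4:**
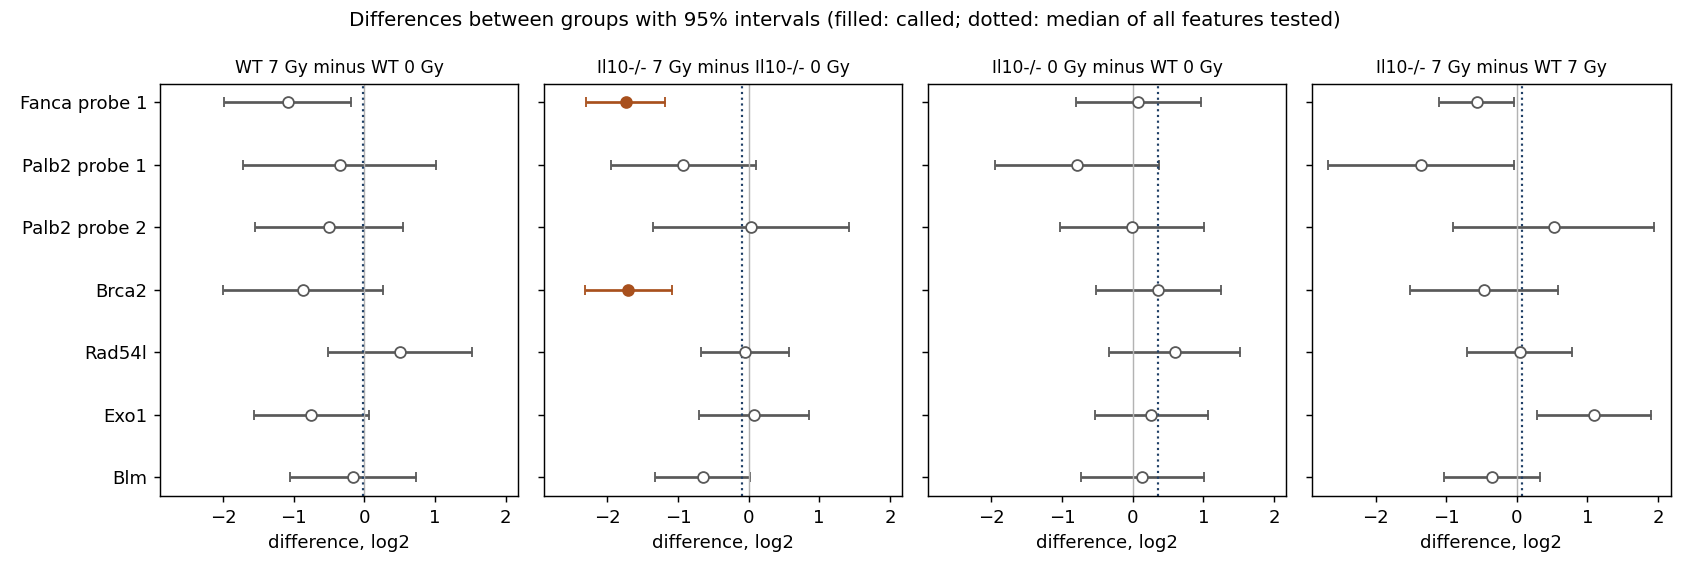
Difference on the log2 scale (x axis) with its 95% interval from limma for the 7 tested probes (y axis) in 4 comparisons; filled points were called and the dotted line is the median difference of all 18587 features. Fanca at −1.74 and Brca2 at −1.70 after 7 Gy in Il10-/- were the called values.

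Other genes of the pathway were counted from a list of Fanconi partners and a list of end resection, helicases and resolution. In WT, 0 of 13 and 0 of 16 tested genes of these lists were called with dose, with median differences of 0.01 and −0.40 against −0.02 over all features. Of all features 6.8% were called there and 2.32% were called lower. In Il10-/-, 0 of 13 Fanconi partners and 3 of 16 resection genes were called, all 3 lower, with medians of −0.40 and −0.72 against −0.10. Of all features 9.16% were called in Il10-/- and 5.87% were called lower. No gene of either list was called higher in any comparison.

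Of the resection list, the nuclease and helicase Dna2 lay between −0.08 and 1.43 without and between −1.65 and −0.43 with 7 Gy in Il10-/- (fitted difference −1.90, adjusted p 0.00272 in limma), and 0 of the 5 irradiated arrays were well above background. Rpa1, the large subunit of the protein that coats single-stranded DNA, lay between 6.00 and 6.55 and then between 5.15 and 5.44 (difference −1.01, adjusted p 0.00477 in limma), on a probe detected on 20 of 20 arrays. Recql, a helicase related to Blm, lay between 0.28 and 1.01 and then between −0.67 and −0.11 (fitted difference −0.96, adjusted p 0.0108 in limma), with 0 irradiated arrays well above background.

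Some genes of cell division were lower after 7 Gy in both genotypes. Of 26 tested proliferation genes, 4 were called lower in WT, where 2.32% of all features were, and 6 in Il10-/-, where 5.87% were. None of the 26 was called higher, and the median differences were −0.63 and −0.96. Nusap1, a spindle protein, was called in both (−2.92 in WT and −2.57 in Il10-/-), as was the cyclin Ccnb2 (−2.25 and −2.2). Ccna2, the cyclin of S phase, was called in WT at −2.23, and the transcriptional repressor E2f8 in Il10-/- at −1.52. Only the 3 largest called genes in each genotype are named, so whether Ccna2 and E2f8 were called in the other genotype is not given. Averaged over the 28 genes of this list that passed the background filter, the level lay between 2.83 and 3.43 in unirradiated Il10-/- and between 1.95 and 2.46 after irradiation, and between 1.68 and 3.18 and then 1.84 and 2.39 in WT.

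Markers of several blood cell types moved with the same comparisons, and their part in the values of Fanca and Brca2 was not tested. Over all features 2.32% were called lower and 4.48% higher after 7 Gy in WT, and 5.87% and 3.29% in Il10-/-. Of 9 tested B-cell markers, 8 were called lower after 7 Gy in each genotype, with median differences of −2.97 in WT and −3.68 in Il10-/-. Averaged over the 9 markers, the level ran from 4.90 to 6.38 in WT at 0 Gy and from 2.04 to 2.82 at 7 Gy, and from 4.81 to 6.00 and then 1.86 to 2.12 in Il10-/-. Of 11 tested erythroid precursor markers, 3 were called lower and 1 higher in WT and 4 lower in Il10-/-, where their mean level ran from 5.47 to 6.87 at 0 Gy and from 4.89 to 5.78 at 7 Gy. Of 9 T-cell markers 2 were lower in each genotype, and 0 of 6 NK-cell, 0 of 7 platelet and 0 of 7 mature neutrophil markers were called with dose. Of 9 neutrophil precursor markers 1 was higher in WT and 1 lower in Il10-/- with dose. In unirradiated mice 4 of the 9 were higher in Il10-/- than in WT, where 0.845% of all features were. Of 6 monocyte markers 1 was higher and 1 lower with dose in WT, and 2 were lower in Il10-/-. Of 3 plasma cell markers 0 were called in WT and 1 was lower in Il10-/-, with a median difference of −1.41. Of 4 stem and progenitor markers 1 was higher and 1 lower in each genotype. Each of these lists had its mean above the median probe in every group.

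Transcripts of other tissues also differed between arrays. The mean level of 11 liver genes ran from −0.29 to 1.65 in WT at 0 Gy, 2.61 to 10.9 in WT at 7 Gy, 1.78 to 9.17 in Il10-/- at 0 Gy and 1.74 to 9.09 in Il10-/- at 7 Gy. In the Il10-/- dose response, in which Fanca and Brca2 were called, 0 of 11 tested liver genes and 4 of 6 tested heart muscle genes were called higher, and 1 heart muscle gene was called lower. Of all features 3.29% were called higher there and 5.87% lower. In the WT dose response 8 of 11 liver genes were called higher, with a median difference of 7.28, and 0 of 6 heart muscle genes were called. Of all features 4.48% were called higher in WT. In unirradiated mice 2 of 11 liver genes were called higher in Il10-/- than in WT, where 0.845% of all features were. The part of these tissues in the values of the members was not tested.

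The tested members showed no single pattern across arrays, in values that were partly near background. Pearson correlations between tested probes of different genes over the 20 arrays, which share slides and groups, ran from −0.42 (Brca2 with Rad54l) to 0.54 (Blm with Fanca), and Fanca with Brca2 gave 0.47. After each group's mean was removed, Fanca with Brca2 gave −0.36 and the highest was 0.64 (Palb2 with Rad54l). The mean of the 6 members, each centred on its own average, ran from 0.05 to 0.59 in Il10-/- at 0 Gy and from −0.69 to −0.27 at 7 Gy, and from −0.52 to 0.55 and then −0.66 to 0.02 in WT. Of 18735 genes compared, the named genes closest to this mean over 20 arrays, leaving out features known only by a transcript identifier, were Hist1h2ab (r = 0.91), Gga2 (0.89), Prr5 (0.89), Prdx2 (0.88) and H2-Oa (0.88). With group means removed, Fgf14 (0.88), Gm5535 (0.88) and again Hist1h2ab (0.87) came first.

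The called members did not share a promoter motif among those searched. RefSeq promoters of the build GRCm38.p6, 250 bases before to 50 bases after the start, were found for 7 of 9 members, and were searched on both strands for the E2F sites TTTGGCGC, TTTCGCGC, TTTCCCGC and TTTGGCGG, for the cell-cycle element TTTGAA and for the CCAAT box. Brca2 had the only E2F match, TTTCCCGC on the opposite strand 168 bases before the start, against 2.42% of 27025 promoters with any of the 4 sites. A CCAAT box stood in 5 of the 7 (Fanca, Blm, Brca1, Palb2 and Rad54l), against 37.9% of all promoters, and TTTGAA in 0, against 18.1%. The matches of Fanca and Brca2 are shown with their flanks, the motif or its complement in capitals, in the direction of transcription. Those of Fanca lie at chr8:123318610-123318638 and chr8:123318583-123318611 on the minus strand and that of Brca2 at chr5:150522442-150522471 on the plus strand.
Fanca, 50 bases before the start: gcatgctcctagCCAATgagcgccagcgc
Fanca, 23 bases before the start: gcctggccgcggCCAATcggaaggcagcg
Brca2, 168 bases before the start: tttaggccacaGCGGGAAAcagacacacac
Brca1, which was not detected, and Rad54l, which was not called, also held a CCAAT box, so its presence did not separate the called members.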

How the data were processed

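Blood RNA of 20 mice was read on single-colour arrays. For each array the authors deposited the output of Agilent Feature Extraction (10.7 in the submitters' processing notes, 12.0.2.2 per the file headers), and the column used is a background-subtracted, detrended intensity per spot. The authors also deposited a table of log2 values, each array shifted by 1 constant, used only as an alternative. It holds 16866 non-control probes, and all its columns were mapped.

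In R 4.3.3 with limma 3.58.1, intensities were converted to log2, outlier spots left out, spots of a probe averaged and the array median over 39429 probes subtracted. The filters followed the study's methods. A probe was dropped if 25% or more of arrays marked it (outlier, or indistinguishable from background), or if it lay 1.5-fold or further from its median in fewer than 20% of arrays. Each comparison was fitted on the 10 arrays of its groups, and the interaction on 20. A gene with several tested probes was counted by the brightest. The steps were tested on simulated data. Precision is limited by 5 arrays a group and by signal near background.

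All 9 members were named, with up to 3 called genes of each pathway list and radiation response ranked by size, the p53 targets, Il10 and the genes most correlated with the members' mean. Members and lists were chosen with earlier results of these data known. Replicate numbers mark slides: deviations of same-numbered arrays from group means correlated by −0.13 to 0.41 on average, in no pair of groups above 0.1 on all 5 slides, so the numbers were not treated as pairs. Results of 1 pathway list are not reported here.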

Additional observations from a re-analysis of the deposited data

Results flagged for a closer look

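Of 28 sets of 5 arrays (7 tested probes in 4 groups), 3 held an array far from the other 4, where chance marks about 1 set in 20. Brca2 stood at 1.16 in replicate 3 of Il10-/- 0 Gy, with the other 4 arrays between 0.40 and 0.46. Brca2 stood at 1.21 in replicate 1 of WT 7 Gy, with the others between −1.59 and −0.94. Exo1 stood at 1.69 in replicate 4 of Il10-/- 7 Gy, with the others between −0.26 and 0.12.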

How the results depend on the processing

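Fanca and Brca2 kept their direction in the Il10-/- dose response under every alternative that gave a value, between −1.97 and −1.49 for Fanca and between −2.25 and −1.54 for Brca2. With quantile normalization 1 member was called there, since the p of Fanca (−1.97) was no longer below 0.001, and in the deposited log2 values also 1, for the same reason for Brca2 (−1.79). Leaving out 1 array at a time kept 2 called (2 to 2). In WT, 0 members were called, but 1, Fanca, with 75th percentile scaling (−1.31) and with both weak arrays left out (−1.39), an alternative chosen after seeing the data; leaving out 1 array gave 0 to 1. With the slide as a replicate block, the counts stayed at 0 in WT and 2 in Il10-/- (Fanca adjusted p 0.00788, Brca2 0.00436 in limma), and at 0 elsewhere. No member was called between genotypes or in the interaction under any alternative. Called features of all 18587 (1263 in WT, 1702 in Il10-/-, 157 and 1 between genotypes at 0 and 7 Gy) ranged over the settings other than leaving out 1 array from 754 to 2712, 815 to 4053, 25 to 384 and 0 to 6. With the slide block they were 1625, 1289, 384 and 0. Differences near 0 changed sign. For Exo1 in Il10-/- the difference was −0.18 with quantile normalization and −0.27 to 0.21 leaving out 1 array. For Rad54l in Il10-/- it was 0.10 scaled to the reference array, 0.013 in the deposited log2 values, 0.028 with replicates 1 and 2 averaged, and −0.19 to 0.11 leaving out 1 array. For Palb2 in WT it was −0.86 to 0.075 leaving out 1 array. The causes were not tested. After normexp background correction with an offset of 50 no member passed the 1.5-fold filter, so it gives no value. Without any filter, Brca1, Fancd2 and Fanci were fitted too and not called. Signal near background limits every member, Blm and Fanca too in Il10-/- 7 Gy, where each was well above it on 2 of 5 arrays.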
